A study of Mus musculus with 2 samples.

Results

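Of the 11929 annotated CD45+ immune cells from mouse liver, 395 carry the name immature B in the deposited annotation. They were taken by that name alone, and all of them belong to cluster 10 of the authors' clustering. TG mice gave 193 of them and WT mice 202, and they were compared with the 2562 cells named mature B, of which 1068 were TG and 1494 WT. The name did not hold against its own markers. Vpreb3, a surrogate light chain partner of early B cells, was lower in these cells than in mature B cells, and Cd24a stood at the same level. The cells are therefore called cluster 10 here. They were B cells with little IgD and CD23, much CD44, and high Ighm, Zbtb32, Lmo7, Fcrl5, Bhlhe41 and Cd9 transcripts, in both genotypes.

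On the microwell platform BD Rhapsody, transcripts of single liver mononuclear cells were read along with 49 surface proteins, the latter through antibodies that carry an oligonucleotide. The TG mice were C57BL/6 mice with the transgene dnTGFβRII and are used as a model of primary biliary cholangitis. The transgene product, altered from the human receptor for TGF-β, blocks signalling in the cells that make it. Its promoter is that of mouse Cd4, a T cell gene and not one of B cells. The WT mice were C57BL/6. TG cells came from a pool shared with IFN-γ ARE-Del-/- mice and WT cells from a second pool shared with P40-/-IL-2Ra-/- mice, and cells of those other genotypes have no cell type name and were not used here. The labels give an age of 10 weeks for all mice and do not give the number of animals in a pool. The study's methods state a younger age for the mice whose liver cells were prepared. With 1 capture library for each genotype no test was possible. Genotype and library cannot be told apart, and every interval is a 95% interval that covers counting error only.

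B cells leave the bone marrow as immature cells that carry IgM, little IgD and no CD23, and that still express CD93 and Vpreb3. Follicular B cells, the recirculating majority, gain IgD, CD23 and CD21 and home to follicles through CCR7 and CXCR5. Marginal zone B cells, B-1 cells and antigen-experienced B cells also carry high IgM or little IgD and CD23, but differ from newly formed cells in that they lack the precursor genes.

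Cells of cluster 10 held more RNA than mature B cells. The median was 5965 UMIs (unique molecular identifiers, each 1 counted transcript) per cell in TG and 4426 in WT, against 2923 and 2044.5 in mature B cells, and the median number of genes was 2220 and 1827 against 1360 and 1074.5. The mitochondrial share was alike, with medians of 7.94% and 8.54% against 7.36% and 7.92%. The summed profiles held 1221867 UMIs in TG and 1017059 in WT for cluster 10, and 3359463 and 3592928 for mature B cells. Levels are given as CPM (UMIs in a summed profile, scaled to a total of 1000000), in which cells with more UMIs weigh more, and transcripts are compared as log2 ratios of these levels.

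The share of cluster 10 was 4.15% (3.60% to 4.77%) among the TG cells and 2.77% (2.41% to 3.18%) among the WT cells, a difference of 1.38 points (0.71 to 2.09). Among B cells alone it was 15.3% (13.4% to 17.4%) for TG and 11.9% (10.4% to 13.5%) for WT. Of cluster 10, 98 TG cells (50.8%) and 68 WT cells (33.7%) held 2 or more UMIs of T cell markers, against 30.2% and 24.4% of the shallower mature B cells. Without all B cells of this kind the difference was 0.29 points. The deposited metadata also hold a clustering made without joining the 2 libraries, at resolution 0.4 (a setting of how finely cells are split). In it, 9 TG members and 45 WT members fell in with most mature B cells of their genotype, and without them the WT share was 2.17%. In the deposited clusterings of the joined libraries, at resolutions from 0.6 to 2, at most 5 TG and 6 WT members did so. No cell barcode of cluster 10 was shared between the libraries.

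The 3 markers given for the name were followed first. Cd79a, the signalling chain of the B cell receptor, stood at 4364 CPM in TG and 3411 in WT, against 4502 and 3914 in mature B cells. Cd24a, which is high on newly formed B cells, stood at 294 and 531 CPM against 288 and 487, with log2 ratios of 0.03 (-0.15 to 0.21) and 0.13 (-0.02 to 0.26). Both genes were thus as high in cluster 10 as in mature B cells to within a small margin, and Cd24a differed more between the libraries than between the cell sets. Vpreb3 (chr10:75943057-75949657, plus strand, GRCm38) stood at 17.2 and 44.2 CPM against 142 and 217, with log2 ratios of -3.01 (-3.75 to -2.41) and -2.28 (-2.76 to -1.86). Of the 3 given markers, Vpreb3 was the one past 2-fold in either genotype, and it was past it in the lower direction. Cells with a Vpreb3 UMI made up 4.66% and 10.9% of cluster 10 against 27.6% and 33.9% of mature B cells, although cluster 10 was the deeper set, and monocytes gave 0.490% and 1.16%.

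Several further genes of B cell precursors had few UMIs. Cd93, a receptor of transitional B cells, had 2 UMIs in TG and 1 in WT, or 1.64 and 0.98 CPM, against 7.14 and 13.4 CPM. Sox4, a factor of B cell precursors, had 0 UMIs in TG, which is at least 6.79-fold lower than in mature B cells, and stood at 11.8 CPM against 35.6 in WT. The recombinase gene Rag1 had 1 UMI in TG and 0 in WT in the library files, and its partner Rag2 had 0 in both, and neither gene is in the filtered table. No mature B value is set beside them here, so they are not read against the name. Myb, a factor of early lymphoid cells, was unlike between the genotypes. In TG it had 1 UMI, with a log2 ratio of -3.26 (-9.17 to -1.26), and in WT 28 UMIs, with 0.60 (-0.11 to 1.24), or -0.77 after thinning to 1000 UMIs. A Myb UMI was found in 0.518% of TG and 9.90% of WT cells of cluster 10 against 2.06% and 3.08% of mature B cells, and after thinning in 0% and 0.990% against 0.655% and 1.87%. Over the precursor list 8 genes had 20 or more UMIs in a comparison, and 3 were higher and 5 lower in each genotype. The median log2 ratio was -1.17 in TG and -1.23 in WT, against -0.03 and -0.06 over all genes counted. The direction of this median was not stable in either genotype. In TG it turned to 0.19 after each cell was thinned to 1000 UMIs and to 0.032 with a minimum of 50 UMIs per gene. Against the largest mature cluster alone (cluster 1) its median was -1.60 in TG but 0.23 in WT. Il7r and Lef1, which T cells also express, had log2 ratios in WT of -1.31 and -1.14 against all mature B cells and of 0.63 and 0.66 against cluster 1. The summed T cell markers of mature cluster 17 reached 5228 CPM in WT. Ighm, the IgM heavy chain, was the 1 member whose interval lay above 0 in each genotype, at 6709 and 7201 CPM against 4472 and 4592.

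**Figure D1:**
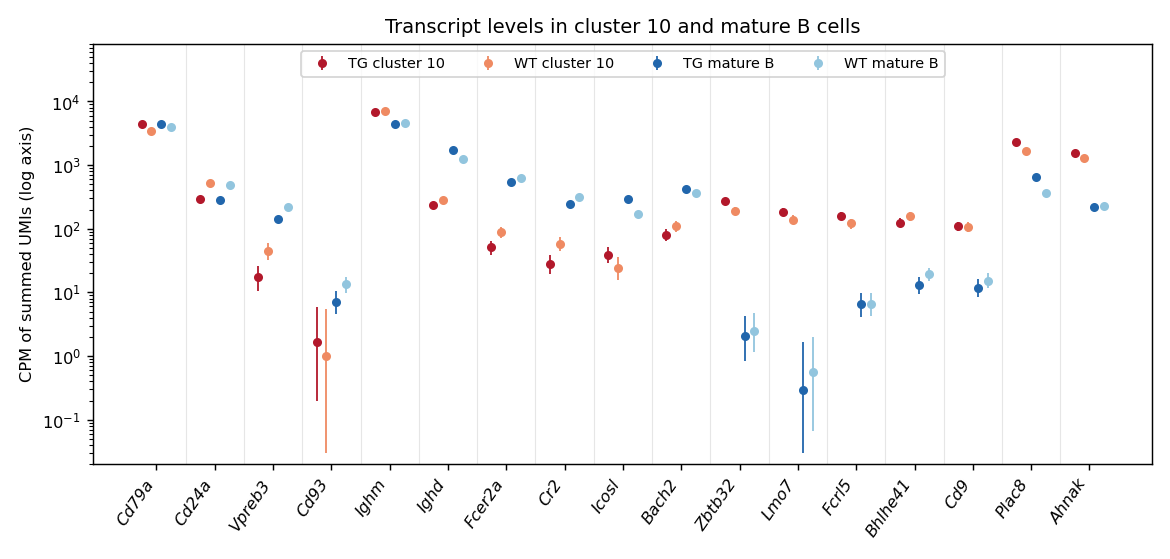
Transcript levels of 17 genes in CPM on a log axis, for cluster 10 and mature B cells of each genotype (1 point per summed profile, bars are exact Poisson 95% intervals of counting error). Vpreb3, Cd93, Ighd, Fcer2a, Cr2, Icosl and Bach2 sit lower in cluster 10, and Zbtb32, Lmo7, Fcrl5, Bhlhe41, Cd9, Plac8 and Ahnak sit higher, with TG and WT on the same side of mature B cells for each.

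Across all genes, a ratio past 2-fold in either direction was found for 1126 of 9326 genes in TG, 12.1% of those counted, with 535 higher and 591 lower. In WT it was found for 1244 of 9382 genes, 13.3%, with 516 higher and 728 lower. Of the 9079 genes counted in both genotypes, 531 were past 2-fold in the same direction in both, 5.85%, of which 280 were higher, 3.08%, and 251 lower, 2.76%. The shared genes made up 58.9% of the genes higher in TG and 59.7% of those higher in WT, and 45.2% and 39.5% of the lower ones. In 9 genes, 0.0991%, the directions were opposite. These counts describe 2 libraries. The annotation came from clusters of the same transcripts, so a difference between cluster 10 and mature B cells in the genes that formed the clusters is built in and was not tested.

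Genes of mature follicular B cells were lower in cluster 10. Of the 19 genes of the list, 16 were lower in TG and 15 in WT, with 8 and 10 past 2-fold lower and none past 2-fold higher, against 6.34% and 7.76% of all genes past 2-fold lower. The median log2 ratio was -0.83 and -1.02. The gene furthest from the mature level was Fcer2a (chr8:3681737-3694175, minus strand), which encodes the low-affinity IgE receptor CD23. It stood at 50.7 CPM in TG and 87.5 in WT against 545 and 630, with log2 ratios of -3.41 and -2.84. Cr2, the complement receptor CD21, stood at 27.8 and 58.0 CPM against 243 and 320. Icosl, the ligand of the T cell costimulator ICOS, stood at 39.3 and 24.6 CPM against 299 and 171. The 3 surface molecules by which follicular B cells take up antigen or meet T cells were thus all far under the mature level in both libraries.

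Ighd, the heavy chain of IgD, stood at 233 CPM in TG and 282 in WT against 1699 and 1257, with log2 ratios of -2.86 (-3.04 to -2.69) and -2.15 (-2.33 to -1.98). Zfp318, which allows the long transcript that carries Ighd, stood at 51.6 and 83.6 CPM against 338 and 328. Ighd and Zfp318 were low together. Of all Ighm and Ighd UMIs, Ighd made up 3.36% in TG and 3.77% in WT, against 27.5% and 21.5% in mature B cells. At least 1 Ighd UMI was found in 45.6% and 51.0% of cells against 95.8% and 87.6%, and after each cell was thinned to 1000 UMIs in 17.1% and 24.3% against 78.7% and 68.0%.

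Not every follicular gene followed. Ms4a1, which encodes CD20, was higher at 1924 and 1508 CPM against 1067 and 968, with log2 ratios of 0.85 and 0.64. Cxcr5, the follicle homing receptor, was higher with log2 ratios of 0.61 and 0.74, and S1pr1, the receptor that guides exit from lymphoid organs, with 0.81 and 0.43. Ccr7, a chemokine receptor for entry into lymph nodes, was lower, at 55.7 and 98.3 CPM against 217 and 265. Ccr7 was thus low while the receptors for follicle homing and egress were not. Pan B cell genes were near the mature level: of 12 counted, none was past 2-fold in either genotype, against 12.1% and 13.3% of all genes in either direction, and the median was -0.01 and -0.16. With 12 genes a count of 0 is close to that background.

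The list of B-1, marginal zone and age-associated B cell genes lay on the other side. In TG 16 of its genes were counted, of which 12 were higher and 4 lower, 10 of them past 2-fold higher against 5.74% of all genes. In WT 18 were counted, 15 higher and 3 lower, with 11 past 2-fold higher against 5.5% of all genes. The median log2 ratio was 1.57 in TG and 1.81 in WT, and against mature cluster 1 alone it was 1.92 and 2.20. Earlier results of these data were known when the list was drawn up, so its direction is no independent evidence.

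Zbtb32 (chr7:30589681-30598909, minus strand), a repressor that restrains the responses of memory and innate-like B cells, stood at 268 CPM in TG and 191 in WT, against 2.08 and 2.50 in mature B cells. Its log2 ratios were 6.91 (5.95 to 8.34) and 6.18 (5.30 to 7.40). At least 1 UMI was found in 68.9% and 42.6% of cluster 10 cells, 0.655% and 0.535% of mature B cells, and 0.490% and 0% of monocytes. After thinning to 1000 UMIs the shares in cluster 10 were 20.2% and 17.3%. Zbtb32 was therefore spread over cluster 10 and nearly confined to it among B cells.

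Bhlhe41, a factor required by B-1a cells, stood at 125 and 156 CPM against 13.1 and 19.2. Fcrl5, an Fc receptor-like inhibitor of innate-like B cells, stood at 161 and 121 CPM against 6.55 and 6.68. Cd9, a tetraspanin of marginal zone and B-1 cells, stood at 109 and 107 CPM against 11.9 and 15.3. These 3 genes differed from mature B cells by log2 ratios between 2.80 and 4.59, and TG and WT lay close to each other in each. Itgam, which encodes CD11b, stood at 54.0 and 52.1 CPM against 8.33 and 6.68. Cd80, a costimulatory ligand, stood at 17.2 and 19.7 CPM against 0.30 and 1.95. Plac8 and Ahnak were the most abundant of the list, at 2268 and 1671 CPM against 655 and 362 for Plac8 and at 1533 and 1285 against 223 and 224 for Ahnak.

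The members that were not higher were Cd1d1 (log2 ratios -0.26 and -1.004), Itgax (-0.95 and -1.29), Tbx21 (-0.46 and -1.23) and, in TG, Dtx1 (-0.14). Tbx21 and Itgax mark age-associated B cells, Cd1d1 and Dtx1 marginal zone B cells. Itgax and Tbx21 in mature B cells rest in part on mature cluster 17, and against cluster 1 the log2 ratio of Tbx21 in WT was 0.07. Cd5, which marks B-1a cells, stood at 7.37 CPM in TG against 2.68 and at 19.7 in WT against 19.5, and the mature WT level was 7.06 in cluster 1. S1pr3 of the list had at most 1 UMI in any of the 4 profiles.

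**Figure D2:**
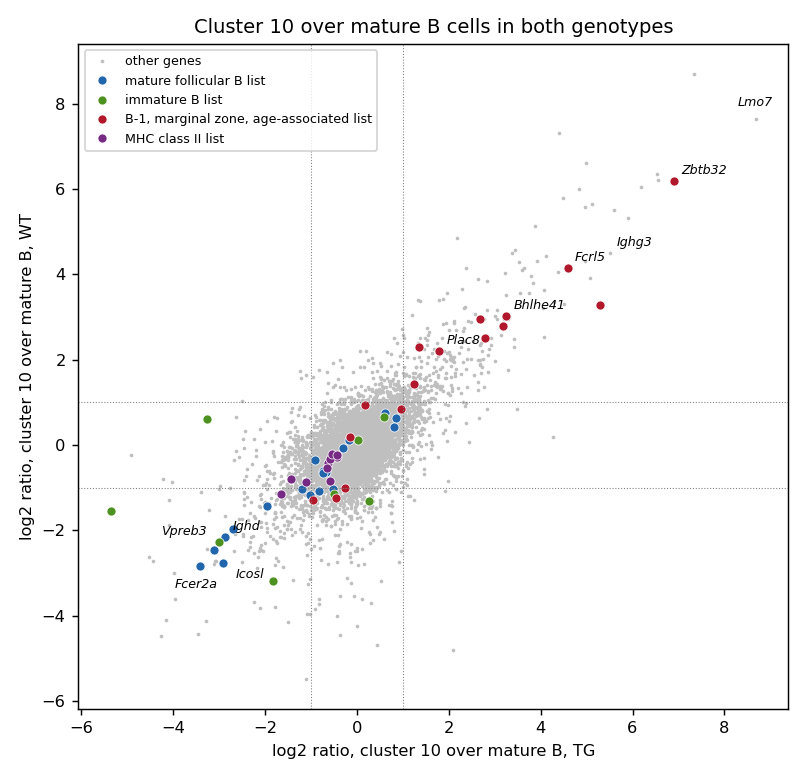
Log2 ratio of cluster 10 over mature B cells for each gene counted in both genotypes, TG on the x axis and WT on the y axis, with dotted lines at 2-fold. Genes of the mature follicular and MHC class II lists lie at or to the lower left of the centre apart from a few follicular genes, most genes of the B-1, marginal zone and age-associated list lie to the upper right, and Vpreb3 lies at -3.01 and -2.28.

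Away from the lists, the genes with the highest ratios in both genotypes included Lmo7 (chr14:101729957-101934710, plus strand), a cytoskeletal and LIM domain protein. It had 225 UMIs in TG and 141 in WT, or 184 and 139 CPM, against 1 and 2 UMIs in mature B cells (log2 ratio intervals of 6.78 to 14.58 and 6.08 to 11.02), and was found in 44.6% and 29.2% of cells. Ahnak2 was at 0 in both mature profiles, and was at least 26.6-fold higher in TG and at least 68.3-fold higher in WT. Prkar2b, a regulatory subunit of protein kinase A, stood at 223 and 248 CPM against 4.46 and 5.29. Each of these was nearly specific to cluster 10 among the B cells of both libraries. Tubb6, Tnfrsf8 (CD30), Gbp2b, Tppp, Tppp3, Gramd2 and Sox5 had log2 ratios between 4.83 and 6.61 in both genotypes, with 12 UMIs or fewer of each in a mature profile.

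Ighg3, the constant gene of IgG3, completed the 12 with 196 and 65.9 CPM against 4.17 and 2.78. Its UMIs lay in few cells. The 3 richest cells held 82.0% of them in TG and 52.2% in WT, and 3 or more UMIs were found in 10 of 193 TG cells, 6 of 202 WT cells and no mature B cell. Atf3, a stress and immediate early factor, was higher at 265 and 215 CPM against 28.6 and 27.6, and Itgb1, the β1 integrin chain, at 320 and 303 against 78.6 and 75.2.

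Among the lowest genes, Sdc1, Knl1 and Kifc2 had 0 UMIs in cluster 10 in both genotypes, and were lower by at least 3.15-fold and 3.68-fold for Sdc1, 2.91-fold and 2.83-fold for Knl1, and 2.55-fold and 1.98-fold for Kifc2. Sdc1 encodes CD138, which marks plasma cells. Satb1, a chromatin organiser, stood at 28.6 and 44.2 CPM against 252 and 309, and Neurl3 at 21.3 and 37.4 against 181 and 250. Satb1 and Neurl3 were thus low in both libraries with 26 to 45 UMIs behind each value. Tmem108, Pxdc1, Nck2, Rflnb and Zfp608 had log2 ratios between -4.43 and -2.71 in both genotypes. Of these, Tmem108 had 3 UMIs in TG and 1 in WT (intervals of -5.97 to -2.08 and -10.32 to -2.49), and Nck2 had 1 in each (-9.89 to -2.03 and -8.91 to -1.01).

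Listed transcription factors of B cells were more often lower than higher. Of 28 counted, 21 were lower in TG and 17 in WT, with medians of -0.44 and -0.39. Past 2-fold lower were 9 and 10, against 6.34% and 7.76% of all genes, and none of the list was past 2-fold higher. Zbtb32, Bhlhe41, Sox5 and Prdm1, which stood higher in cluster 10 in both genotypes, are not members of this list. Bach2, which holds back plasma cell differentiation, stood at 80.2 and 109 CPM against 418 and 369. Irf8 (log2 ratios -1.78 and -1.39), Mef2c (-1.48 and -1.22), Foxo1 (-1.26 and -1.09), Bcl6 (-2.12 and -2.42) and Id3 (-1.62 and -1.42) were also lower, although Id3 had -0.72 and -0.80 after thinning to 1000 UMIs. These are factors of follicular and germinal centre B cells. Tcf4 (0.73 and 0.82) and Zeb2 (0.96 and 0.84) were higher, and Pax5, which holds B cell identity, was lower by less than 2-fold (-0.42 and -0.73).

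B cell receptor signalling genes were close to the mature level, with medians of -0.04 and -0.16 over 24 genes, none past 2-fold higher, and 3 and 2 past 2-fold lower, against 6.34% and 7.76% of all genes. Those past 2-fold lower in both were Cr2 and Cd72, an inhibitory coreceptor, at 33.6 and 48.2 CPM against 190.0 and 206. Fcgr2b, the inhibitory Fc receptor, was higher (0.91 and 0.56), as was the kinase gene Blk (0.44 and 0.90). All 10 genes of the MHC class II pathway were lower in both genotypes, with medians of -0.61 and -0.47. H2-Aa, for example, stood at 3582 and 3041 CPM against 5539 and 4052, and the transactivator Ciita at 119 and 152 against 323 and 267. The difference in MHC class II was past 2-fold for 3 genes of the 10 in TG and 1 in WT, against the same 6.34% and 7.76% of all genes. The lowest log2 ratio was -1.66 in TG and -1.16 in WT. The 1 gene in WT was H2-Oa, which had -0.82 after thinning.

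Homing receptors were mixed, with 1 and 1 past 2-fold higher (5.74% and 5.5% of all genes) and 6 and 7 lower (6.34% and 7.76% of all genes) of 19 counted, and medians of -0.40 and -0.22. Cxcr4 had log2 ratios of -1.24 and -1.70 and the cannabinoid receptor Cnr2 -1.42 and -2.11, whereas the integrin genes Itgb7 (0.72 and 0.67) and Itga4 (0.37 and 0.19) were higher. Genes of cell division had medians of -0.02 and -0.31 over 20 genes, with Pcna, the sliding clamp of DNA replication, at 92.5 and 107 CPM against 109 and 143. Past 2-fold higher were 1 and 2 (5.74% and 5.5% of all genes) and lower 1 and 1 (6.34% and 7.76%). The lowest member was at -1.05 and -2.38. The highest was Pclaf at 1.98 and 1.21. It had 0.38 in TG without B cells holding 2 or more T cell UMIs, and 0.81 in WT with equal weight for each cell. Survival genes had medians of 0.26 and 0.18 over 16 genes, among them Tnfrsf13b (TACI) at 187 and 189 CPM against 123 and 127. Plasma cell genes numbered 6 counted in TG, with 2 past 2-fold higher and 1 lower, and 7 in WT, with 3 and 1, where all genes gave 5.74% and 5.5% higher and 6.34% and 7.76% lower. Mzb1, a chaperone of the IgM assembly pathway, was higher with log2 ratios of 1.24 and 1.42, and Xbp1 stood at 71.2 and 63.9 CPM against 78.9 and 66.8. Prdm1, which encodes the plasma cell driver Blimp-1, also had log2 ratios of 1.01 (-0.03 to 1.99) and 2.58 (1.91 to 3.29), and Derl3, counted in WT, had 2.59 on 14 UMIs. Both were thus past 2-fold higher in WT. In TG, Mzb1 had 0.97 after thinning to 1000 UMIs, and Prdm1 had 0.88 without the members placed with mature B cells. Xbp1 and Sdc1 were not higher.

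Genes of the TGF-β pathway had medians of -0.46 and -0.51 over 12 genes, with 2 past 2-fold lower in each genotype, against 6.34% and 7.76% of all genes. Those 2 were Smad7, the pathway's own inhibitor, at 15.5 and 41.3 CPM against 153 and 225, and the repressor gene Skil with log2 ratios of -1.22 and -1.21, or -0.90 and -0.91 after thinning. Tgfbr2, the mouse receptor whose human counterpart the transgene alters, had log2 ratios of -0.89 and -0.78. Immediate early genes had medians of -0.58 and -0.41 over 23 genes, with 4 and 6 past 2-fold lower (6.34% and 7.76% of all genes) and 2 and 1 higher (5.74% and 5.5%). Egr3, Egr1 and Dusp2 were lower in both genotypes (log2 ratios between -1.80 and -1.08, with Egr1 in TG at -0.78 after thinning), Atf3 and Myc were higher. Interferon-induced genes (49 counted, medians -0.31 and -0.01) and ribosomal protein genes (79 counted, medians 0.11 and 0.22) showed no shift of 2-fold, and 4 and 5 interferon genes were past 2-fold higher and 5 and 6 lower, against 5.74% and 5.5% of all genes higher and 6.34% and 7.76% lower.

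The surface proteins were read in the same cells by antibodies, independently of the transcript counts, and the values are called centred log ratios. Each is the natural log of 1 plus the antibody's count divided by a geometric mean of the cell's antibody counts. A value of 0 therefore means no count, no value is negative, and differences between low counts are compressed. The authors also used surface proteins when naming the cells, so these values describe the set. CD23 had a median of 0.47 in TG (quartiles 0.23 and 0.95) and 0.50 in WT, against 3.62 and 2.59 on mature B cells. IgD had medians of 1.48 and 1.94 against 4.70 and 4.35. The pairs of protein and transcript pointed the same way for both. CD45R (B220) was lower, at 1.89 and 1.59 against 3.87 and 3.65. IgM was higher in TG, at 5.50 against 4.18, and less so in WT, at 4.38 against 3.95.

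Of the 49 antibodies, 4 differed by 0.5 or more in the higher direction in both genotypes, and 6 in the lower. The 4 were CD44, CD49d, CD9 and CD16-CD32. CD44, the hyaluronan receptor of activated lymphocytes, had medians of 3.38 and 3.45 against 1.97 and 2.03, CD49d, the integrin α4 chain, of 2.79 and 2.68 against 2.06 and 2.07, and CD9 of 0.85 and 1.02 against 0.31 and 0.39. The Fc receptors CD16-CD32 were at 2.70 and 1.60 against 1.02 and 1.00. The 6 lower proteins included CD23, IgD, CD45R, CD200 and CD8b, with the last at 0.63 and 0.69 against 1.63 and 1.70. The study used CD8b to name a class of T cells, and the part of antibody background in its values on B cells was not tested. CD138, the product of Sdc1, had a median of 0 in each of the 4 groups.

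**Figure D3:**
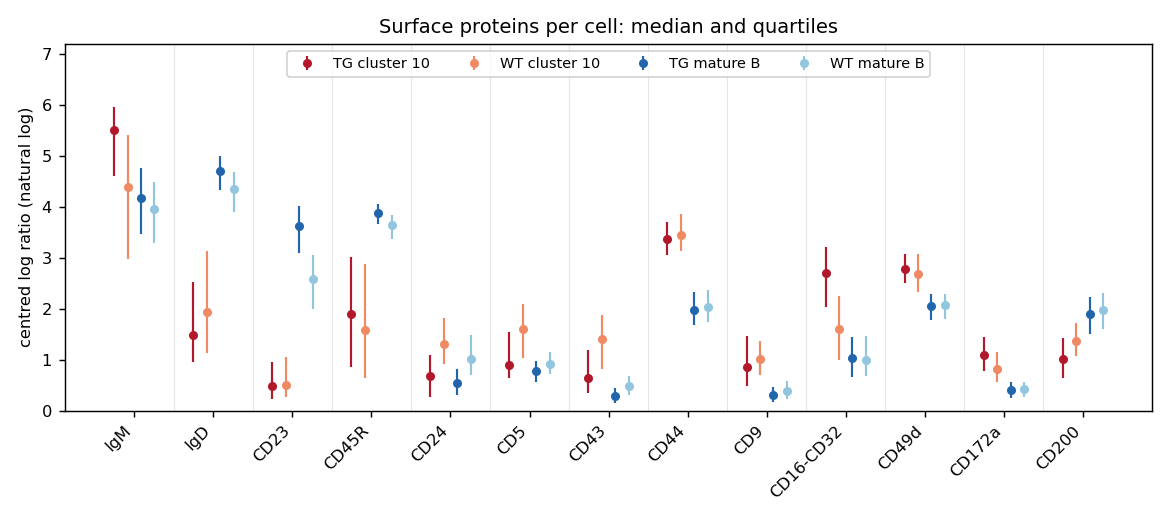
Centred log ratio (natural log) of 13 surface proteins per cell, as the median with quartiles over cells of cluster 10 and of mature B cells in each genotype. IgD, CD23, CD45R and CD200 sit lower on cluster 10, and CD44, CD9, CD16-CD32, CD49d and CD172a sit higher, in both genotypes.

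CD43 and CD5, which mark B-1a cells when found with IgM, were more often high in cluster 10, but not in most of its cells. Cells above the 95th percentile of mature B cells of the same genotype made up 40.4% in TG and 35.6% in WT for CD43, and 30.1% and 12.4% for CD5. Both at once were found on 39 of 193 cells in TG, or 20.2% (14.8% to 26.6%), and on 20 of 202 in WT, or 9.90% (6.15% to 14.9%), against 2.06% and 2.34% of mature B cells. Pairs with IgM were fewer. CD43 and IgM were both above it on 16.6% and 5.45% of cells, against 0.281% and 0% of mature B cells. CD5 and IgM were so on 9.33% and 1.49%, against 0% and 0.0669%. By contrast 88.1% and 81.7% of cluster 10 lay above that percentile for CD44, and 52.3% and 58.4% for CD9. CD44 was the protein shared by nearly all of the cluster, and CD5 was carried by a minority. In WT the percentile rests in part on mature cluster 17, whose cells hold T cell transcripts.

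The cells of cluster 10 were not alike. Over cells, the rank correlation of CD5 with CD43 was 0.46 in TG (193 cells) and 0.63 in WT (202 cells), that of CD45R with CD43 was -0.46 and -0.51, and that of CD23 with IgD was 0.55 and 0.50. These are descriptions over cells of 1 library each, which share antibody depth. Cells below the lower quartile of mature B cells for both CD23 and IgD numbered 179 of 193 in TG, which is 92.7% (88.1% to 96.0%), and 167 of 202 in WT, which is 82.7% (76.7% to 87.6%), against 13.1% and 14.2% of mature B cells. Within mature cluster 17 the share was 44.8% in TG (13 of 29 cells), and 62 of 155 cells were low for both in WT. The remaining cells carried one or both proteins at mature levels, and the lower quartiles were set in each genotype, at 3.10 in TG and 2.00 in WT for CD23 and at 4.34 and 3.90 for IgD, so the shares of the genotypes are not compared.

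**Figure D4:**
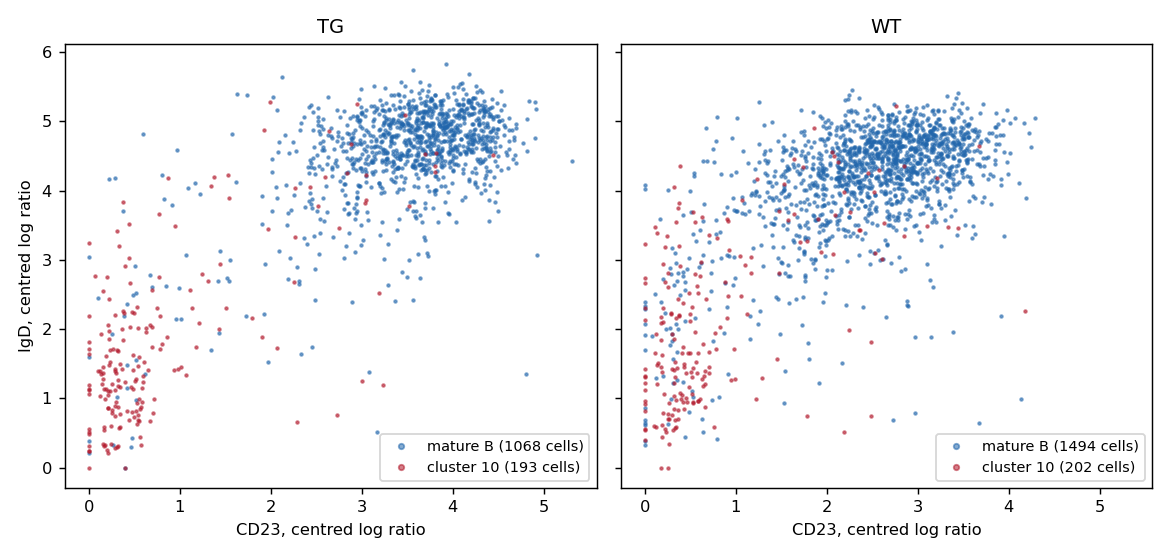
CD23 against IgD on single cells of TG (left) and WT (right), as centred log ratios, with mature B cells in blue and cluster 10 in red. Most cells of cluster 10 gather at the lower left, where 92.7% of them in TG and 82.7% in WT lie below the lower quartile of mature B cells for both proteins, and a minority lies among the mature cells.

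Immunoglobulin transcripts were followed next, and whether they took part in the clustering behind the name is not given in the sources used here. Lambda constant genes made up 12.3% of light chain constant UMIs in TG and 14.2% in WT, against 10.3% and 11.1%. Ighg1, Ighg2b, Ighg3 and Igha together made up 7.50% and 3.47% of heavy chain constant UMIs, against 5.30% and 1.89%. Monocytes, which make no immunoglobulin, set the background. After thinning to 1000 UMIs, Igha was found in 21.8% of cells of cluster 10 in TG and 5.45% in WT, against 27.0% and 4.26% of monocytes, and Ighg1 in 4.15% and 1.98% against 5.39% and 2.71%. Unthinned, Igha was found in 73.1% and 15.3% of cluster 10 (median 5965 and 4426 UMIs per cell) and 50.5% and 6.59% of monocytes (median 2614.5 and 1769.5). Igha in TG and Ighg1 in both genotypes were thus at the background of this measure, and nothing is read from the switched share between genotypes. Ighg3 was above it, at 5.70% and 3.96% of thinned cells against 0.490% and 0%. Over the constant genes as a list the median log2 ratio of cluster 10 over mature B cells was 0.25 and 0.49. The cluster was thus mostly IgM expressing in both genotypes, and in part the switched UMIs lay in few cells. In TG the 3 richest cells held 82.0% of Ighg3 UMIs but 12.9% of Igha UMIs. In WT the 3 richest cells held 77.8% of Ighg2b UMIs and 70.7% of Igha UMIs, and without the 45 members placed with mature B cells the log2 ratio of Ighg2b turned from 1.56 to -0.63.

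A light chain V segment could be assigned, by 3 or more UMIs of a segment, in 81 of 193 TG cells and 47 of 202 WT cells, against 179 of 1068 and 64 of 1494 mature B cells, which are shallower. At least 1 UMI of Igkc, the kappa constant gene, was found in 90.2% of TG and 19.8% of WT monocytes. The part of this background in the assigned segments was not tested. The segment that set cluster 10 apart was Igkv14-126. It was assigned in 8 of the 81 TG cells, a share of 9.88% (4.36% to 18.5%), and 10 of the 47 WT cells, a share of 21.3% (10.7% to 35.7%), but in 0 of 179 mature TG cells, which allows up to 1.68% by the floor of 3 counts, and 0 of 64 mature WT cells, which allows up to 4.69% by the same floor. The exact upper limits of these 0 counts are 2.04% and 5.60%. Igkv12-89 was assigned in 5 and 6 cells against 2 and 0. Iglv1 and Iglv2 were the most frequent otherwise, with 11 and 7 cells for Iglv1 against 17 and 8, and 9 and 6 for Iglv2 against 7 and 1. Igkv5-39 went the other way in WT, with 0 cells against 7. The segments were chosen after their values were seen, V segments share sequence so reads can be split between relatives, and whether cells share a clone was not tested.

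The coding part of exon 2 of Igkv14-126 is printed because it is the segment that recurred in both genotypes of cluster 10 and was not assigned in mature B cells. It lies at chr6:67896345-67896642 on the plus strand of GRCm38 and is 298 bases long. The 23 capitals mark the bases after the last in-frame cysteine codon, which the germline segment gives to CDR3, the loop that contacts antigen.
Igkv14-126: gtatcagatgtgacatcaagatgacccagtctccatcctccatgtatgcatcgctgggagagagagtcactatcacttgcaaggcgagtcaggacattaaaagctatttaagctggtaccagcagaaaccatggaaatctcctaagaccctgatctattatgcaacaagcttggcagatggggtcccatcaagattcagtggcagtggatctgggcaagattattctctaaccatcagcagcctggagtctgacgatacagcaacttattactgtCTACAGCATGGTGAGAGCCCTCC

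TG was then set against WT within cluster 10, with the same ratio in mature B cells beside it for the counts and for many of the named genes. Past 2-fold were 459 of 8167 genes, 5.62%, with 219 higher in TG (2.68%) and 240 lower (2.94%). In mature B cells this held for 446 of 9852 genes, 4.53%, with 181 higher (1.84%) and 265 lower (2.69%). Interferon-induced genes were higher in TG in both sets. In cluster 10, 38 of 43 were higher and 5 lower, 4 of them past 2-fold higher against 2.68% of all genes, with a median log2 ratio of 0.44 against -0.02 over all genes. In mature B cells 46 of 51 were higher, 12 of them past 2-fold against 1.84%, with a median of 0.49. Gbp7, a guanylate-binding protein, stood at 552 CPM in TG and 277 in WT (log2 ratio 0.99, and 1.08 in mature B cells). Psmb9, a subunit of the immunoproteasome, stood at 214 and 91.4 CPM (1.22, or 0.95 after thinning, and 1.47 in mature B cells). The interferon genes were thus higher in TG in both B cell sets. Irf1 (0.02 in cluster 10 and 0.53 in mature B cells) and Ly6a (0.23 and 1.04) stood out as smaller in cluster 10, and the difference between the sets was not tested. 

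Genes were ranked among those with 50 or more UMIs and UMIs in 10 or more cells, without receptor segments and sex genes. Of these, the highest in TG over WT within cluster 10 was Slfn1 (chr11:83116849-83122670, plus strand), a Schlafen family gene linked to lymphocyte quiescence. It stood at 225 CPM in TG and 25.6 in WT, a log2 ratio of 3.11 (2.56 to 3.78), against 1.41 in mature B cells, and 56.0% of TG cells held a UMI against 6.44% of WT cells. Monocytes held it in 94.1% and 73.3%. Gbp2b, interferon-induced, stood at 270.1 and 45.2 CPM (2.56), and was at 3.57 and 0.56 CPM in mature B cells. Il2ra, the high-affinity chain of the IL-2 receptor, stood at 51.6 and 15.7 CPM (1.68, 0.90 to 2.60), and was lower in TG among mature B cells (-0.97). All 10 T cell markers were lower in TG among mature B cells too, with a median of -1.32, and their part in the Il2ra value was not tested. For Slfn1, Gbp2b and Il2ra the TG cells of cluster 10 had the highest level of the 4 profiles. Hspa1b (2.43), Gm11361 (2.04), Rps10 (1.91) and Pltp (1.68) were higher in TG mature B cells too, with log2 ratios of 1.42, 1.96, 1.48 and 1.08. Mall (1.91) had no UMI in mature B cells of either genotype.

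Gzma (2.06), Gzmb (1.67) and Cd7 (1.95), which are genes of NK and T cells, were also among the 12 higher in TG, and Ighg1 (1.88) completed them. The 3 richest cells held 51.0% of Cd7 UMIs, 44.6% of Gzmb UMIs and 48.5% of Ighg1 UMIs in TG. Summed NK cell markers stood at 237 CPM in TG cluster 10 and 106 in WT, and at 250.0 and 97.1 in mature cluster 1, but that sum holds Gzma itself. Without Gzma the sum was 112 and 76.7 CPM in cluster 10 and 93.4 and 71.3 in cluster 1. Of the 5 NK markers counted all 5 were higher in TG cluster 10, 1 of them, Gzma, past 2-fold against 2.68% of all genes. The share of cells with an Ighg1 UMI was at the level of monocytes after thinning. After the same thinning Gzma was found in 11.4% of TG and 1.98% of WT cells of cluster 10. The shares were 4.15% and 2.48% for Gzmb and 4.15% and 1.49% for Cd7. Monocytes gave 17.2% and 5.81% for Gzma, 8.33% and 3.49% for Gzmb, and 6.37% and 5.43% for Cd7. Mature B cells gave 14.1% and 3.35%, 6.18% and 3.15%, and 5.34% and 5.02%. All 3 genes were thus less frequent in cluster 10 than in monocytes of the same genotype. Without B cells that held 2 or more T cell UMIs the log2 ratio of Gzmb was 0.98.

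At the other end, Ms4a6c stood at 16.4 CPM in TG and 89.5 in WT (log2 ratio -2.42), Trib1 at 46.6 and 166 (-1.82) and Ets2 at 11.5 and 41.3 (-1.82). Prdm1, which encodes Blimp-1, the driver of plasma cell differentiation, stood at 13.1 and 50.1 CPM (-1.91, -2.85 to -1.10), with -0.34 in mature B cells. Adm, the adrenomedullin gene, stood at 28.6 and 100.3 CPM (-1.79) and the checkpoint receptor gene Ctla4 at 10.6 and 37.4 (-1.78). WT cluster 10 was the highest of the 4 profiles for Ms4a6c, Prdm1, Adm and Ctla4. Among mature B cells, fewer TG than WT cells held a UMI of Trib1 (12.6% and 17.1%), Ets2 (3.93% and 6.43%) and Ctla4 (1.12% and 1.47%). More TG than WT mature B cells held one of Ms4a6c (1.97% and 1.67%) and Adm (1.59% and 0.669%). Without B cells that held 2 or more T cell UMIs the log2 ratio of Ctla4 was -0.95. Dusp5 (-1.76), Irs2 (-1.54), Camk2n1 (-1.54) and 1700017B05Rik (-1.57) were lower in TG among mature B cells as well, with -1.43, -1.16, -1.26 and -0.72, and Wee1 (-1.72) was not, with 0.28. 1810046K07Rik was set to 0 in TG by the authors' filter.

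Features that set cluster 10 apart from mature B cells were also compared between the genotypes, and they differed to unlike extents. Zbtb32 had a TG over WT log2 ratio of 0.49 (0.23 to 0.76), Fcrl5 of 0.41 (0.08 to 0.75), Cd9 of 0.02 and Bhlhe41 of -0.32 (-0.65 to 0.01). Fcer2a had -0.78, Vpreb3 -1.35 and Cr2 -1.05, but without the members placed with mature B cells Vpreb3 had -0.70 and Cr2 -0.30. Vpreb3 and Cr2 thus differed less between the genotypes without those members. Of the precursor list 6 genes were counted and all 6 were lower in TG, 3 past 2-fold against 2.94% of all genes, with a median of -1.10, or -0.33 after thinning. In mature B cells all 8 counted genes of this list were lower in TG too, with a median of -0.82. Of these, 3 were past 2-fold lower against 2.69% of all genes. In cluster 10 Myb was the lowest, at -4.51 (-10.43 to -2.48). Cell division genes had a median of 0.31 over 17 genes, with 5 past 2-fold higher against 2.68% of all genes and none past 2-fold lower. The 5 were Stmn1 (2.06, 0.95 to 3.55), Pclaf (1.68, 0.65 to 2.97), Mcm3 (1.08), Cks1b (1.08) and Mcm2 (1.03), with 6 to 18 UMIs in WT and 16 to 45 in TG. With equal weight for each cell Mcm3 was at 0.93, Cks1b at 0.998 and Mcm2 at 0.44, and without B cells that held 2 or more T cell UMIs Mcm3 was at 0.77 and Mcm2 at 0.27. Hmgb2 (-0.72), Cenpa (-0.78) and H2afz (-0.48) of the same list were lower in TG. Immediate early genes had a median of -0.26, with 16 of 22 lower, and survival genes one of -0.33 with 8 of 13 lower. In mature B cells 18 of 23 immediate early genes were lower in TG, with a median of -0.15. For survival genes it was 12 of 16, with -0.28.

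TGF-β pathway genes had a median of -0.17 over 12 genes, with Smad7 at -1.39 against -0.56 in mature B cells. Some lists lay nearer to 0. MHC class II genes had a median of 0.17, homing receptors 0.08, mature follicular genes 0.06, pan B cell genes 0.18, B cell receptor signalling genes 0.06, B cell transcription factors -0.20 and the B-1, marginal zone and age-associated list 0.02. Among proteins, IgM was higher in TG by 1.12 and CD16-CD32 by 1.10, against 0.23 and 0.02 in mature B cells, and CD43 and CD5 were lower in TG by a centred log ratio of 0.77 and 0.72, against 0.20 and 0.13. By the natural log ratio of shares of all antibody counts, the same differences of TG over WT in cluster 10 were 0.26 for IgM, 0.53 for CD16-CD32, -0.94 for CD43 and -1.17 for CD5, so the size for IgM and CD16-CD32 depends on the measure. CD43 and CD5 were lower in TG by both measures, although more TG cells lay above the percentile of mature B cells, which was set in each genotype by its own mature cells. CD24 was lower in TG in both sets.

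**Figure D5:**
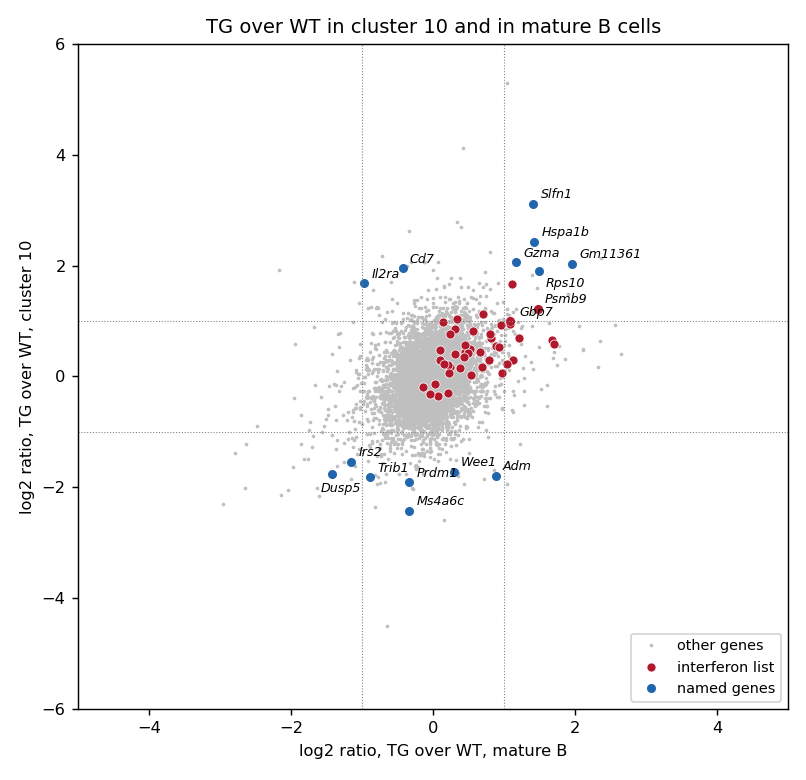
Log2 ratio of TG over WT for each gene in mature B cells (x axis) and in cluster 10 (y axis), with dotted lines at 2-fold, over 8075 genes of which 2 lie outside the axes. Most interferon-induced genes lie to the upper right of the centre, Slfn1 lies at 1.41 and 3.11, and Prdm1, Adm, Wee1 and Ms4a6c lie past 2-fold lower in cluster 10 and within 2-fold in mature B cells.

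Markers of other cell types were followed in cluster 10 beside mature cluster 1, the largest mature cluster. All 10 T cell markers were detected, at a sum of 387 CPM in TG and 562 in WT, against 362 and 331 in cluster 1 and 4271 and 5228 in mature cluster 17. In WT 8 of the 10 were higher in cluster 10 than in cluster 1, with a median log2 ratio of 0.86. Macrophage markers summed to 67.9 and 25.6 CPM against 41.8 and 33.5 in cluster 1, with 6 of 9 at 0 in TG and 5 of 9 at 0 in WT, and neutrophil markers to 316 and 160.3 against 325 and 243. Plasmacytoid dendritic cell markers summed to 72.8 and 87.5 CPM against 58.4 and 42.0. Erythroid markers summed to 4.09 and 2.95 CPM against 7.97 and 118, and platelet markers to 1.64 and 0.98 against 2.87 and 7.06. Progenitor markers summed to 969 and 807 CPM against 871 and 868, with 3 of 6 at 0 in TG and 2 of 6 in WT. Only 1 progenitor marker had enough UMIs to be counted. Hepatocyte, bile duct and endothelial markers summed to 171 and 176 against 179 and 183, with 4 of 6 at 0 in TG and 2 of 6 in WT. The 2 counted had log2 ratios to cluster 1 of -0.27 and 1.51 in TG, and of -0.49 and 2.36 in WT. The sums of cluster 10 and cluster 1 differed most in WT, where T cell and dendritic cell markers were higher and erythroid and platelet markers lower in cluster 10, and their part in the results was not tested. As doublets, Scrublet marked 0 of the 193 TG members and 4 of the 202 WT members, against 2.25% and 7.43% of mature B cells.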

How the data were processed

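Per the study's methods and the labels, the authors aligned reads to mm10 with STAR inside the BD Rhapsody pipeline, filtered cells and genes, joined the datasets by canonical correlation in Seurat and named the clusters. The deposited tables hold UMI counts of RNA and of 49 antibodies for each cell, and the cell metadata with the authors' mitochondrial percent. Antibody values deposited as natural log centred ratios were recomputed from the antibody counts, and 0 differed (tolerance 1e-06). The deposited genes found in few cells of a genotype were set to 0 there by the authors (630 genes at 0 in TG and 365 in WT), so a 0 can be a filter. For all other genes 0 values differed from the library files.

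Each deposited library was 1 sample with its group taken from its label. UMIs of all cells of a set were added up within each genotype, with 20 or more UMIs over both profiles and a pseudocount of 0.5 UMIs for log2 ratios. Intervals were exact Poisson for CPM, Clopper-Pearson for shares, conditional binomial for ratios and Newcombe for differences. A count of 0 was given a floor of 3 UMIs over the profile. The genes named were the members of the gene lists, the 12 highest and 12 lowest ratios shared by both genotypes, and the 12 highest and lowest of TG over WT (50 or more UMIs, UMIs in 10 or more cells), without receptor segments and sex genes. Other genes and segments named in the text were chosen after their values were seen. The members and lists were chosen with earlier results of these data known. Positions and the segment sequence come from the GENCODE annotation and transcripts of GRCm38. Doublets were called with Scrublet (scanpy 1.11.5, expected rate 5%). TMM factors came from edgeR 4.0.16 (R 4.3.3). The scripts ran under Python 3.11.15 (numpy 2.4.6, pandas 2.3.3, scipy 1.17.1) and were tested on simulated data. Alternatives were other scalings, minimum counts, a pseudocount of 1, thinning each cell to 1000 UMIs, equal weight for each cell, the library counts, and other cell sets.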

Additional observations from a re-analysis of the deposited data

Results flagged for a closer look

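Opposite directions of the ratio of cluster 10 over mature B cells in TG and WT were looked for only among genes named in the text. In 2 of these the directions were opposite with both intervals away from 0. Of all 9079 genes counted in both genotypes, 9 were past 2-fold in opposite directions. The difference between the genotypes was not tested. Klf2, a factor of lymphocyte quiescence and homing, had a log2 ratio of -0.18 in TG and 0.12 in WT, and stood at 1317 and 949.8 CPM in cluster 10 against 1490 and 876 in mature B cells. Iglc3, a lambda constant gene with close relatives that can share its reads, had -0.19 in TG and 0.23 in WT, and stood at 390 and 518 CPM against 447 and 443.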

How the results depend on the processing

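No paired analysis was possible because TG and WT had 1 library each, which are not replicates of each other for the comparison of cell sets within a library either, and because the clusters were drawn from the same transcripts. With 1 library per genotype no replicate could be left out. The count of genes past 2-fold followed the minimum count. Without a minimum it was 2564 in TG, 2684 in WT and 2678 for TG over WT, and with a minimum of 50 UMIs 682, 737 and 159. Thinning gave 277 for TG over WT, with fewer genes counted. The precursor list, with 8 genes or fewer counted, was the least stable. In TG its median of -1.17 turned to 0.19 with thinned cells and 0.032 with a minimum of 50 UMIs, and was -1.98 without B cells holding 2 or more T cell UMIs. In WT its median of -1.23 turned to 0.23 against mature cluster 1, and was -0.51 with no minimum and -0.24 without Scrublet doublets. Its TG over WT median of -1.10 was -0.33 with thinned cells. The mature follicular median in WT was -0.78 with thinned cells and -0.79 without cells holding T cell UMIs, and the MHC class II median was -0.64 in WT against cluster 1 and -0.018 for TG over WT with thinned cells. The share of cluster 10 was 15.3% in TG and 11.9% in WT of all B cells, a difference of 3.39 points. It was 2.25% and 1.96% without cells holding T cell UMIs, a difference of 0.29 points, but that cut also depends on depth. Without the members placed with mature B cells, a setting chosen after seeing the data, the WT share was 2.17%. Counts of proteins were 10, 15 by share of antibody counts, and 10 against cluster 1, the last also chosen after seeing the data.

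Some values outside the main comparisons turned direction. Against mature cluster 1 in WT these were the medians of the T cell (0.86) and NK cell markers (0.32), and Lef1 (0.66), Il7r (0.63), Tbx21 (0.073), Gzma (0.21), Gzmb (0.076) and Cd3e (0.91), and in TG Nkg7 (0.13). Without cells holding T cell UMIs these were Tbx21 (0.32), Gzmb (0.12) and Cd3e (0.86) in WT. Without the members placed with mature B cells Ighg2b in WT was at -0.63. The TG over WT median of dendritic cell markers was -2.16 over 3 genes, and turned to 0.88 with no minimum, 0.43 with a minimum of 50 UMIs and 0.83 without cells holding T cell UMIs. The causes were not tested. Of the remaining values of single genes, proteins and marker lists, 6188 stayed within their own interval or spread, and 402 moved outside it. The 6188 include settings that cannot change the ratio of a single gene, such as the minimum counts, so they are no measure of stability. Thinning moved 49 of 132 named genes outside their interval in TG, 52 of 137 in WT and 42 of 100 for TG over WT. For genes and lists a turn was counted only where the main value was past 2-fold. Smaller values among these could change direction, as Myb in WT did after thinning. Of the named genes past 2-fold, TMM scaling kept 75 of 76 in TG, 81 of 85 in WT and 44 of 44 for TG over WT, thinning 46 of 51, 50 of 60 and 15 of 16 of those still counted, equal weight for each cell 75 of 76, 76 of 85 and 40 of 44, and leaving out cells with T cell UMIs 62 of 66, 70 of 77 and 30 of 35. Against cluster 1 alone 73 of 76 remained past 2-fold in TG and 73 of 83 in WT. Depth limits genes with few UMIs in cluster 10, such as Cd93 and Sox4, and the assignment of light chain segments.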
